A study of Mus musculus with 5 samples.

Results

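The regions described here are the peaks of CCT3 RNA binding that the authors' deposited annotation placed in a 3′ UTR. The rule took every row of the CCT3 peak list with that annotation, which gave 1969 of its 10916 peaks (18.0%), and the same class of a further CCT3 list, called CCT3-2, served as a check with 3081 of 18650 peaks. The assay was eCLIP, which maps where a protein touches RNA: ultraviolet light links the protein to its RNA, the protein is pulled down, and the short RNA pieces that come with it are sequenced and set against an input library. All libraries came from GC-2spd(ts), an immortalised mouse germ cell line given as spermatocytes in the labels, with no treatment or genotype named. Of the 5 samples, 2 were inputs, 1 for each protein, and 3 were immunoprecipitations with 1 peak list each, named PABPC1, CCT3 and CCT3-2, of which the last 2 carry the same library name.

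CCT3 is a subunit of TRiC/CCT, the cytosolic ring chaperonin that folds actin, tubulin and other proteins. PABPC1 is the cytoplasmic protein that coats the poly(A) tail and supports translation and mRNA stability. A 3′ UTR is the part of an mRNA between the stop codon and the poly(A) tail, where microRNAs and RNA-binding proteins dock.

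Each peak has a deposited log2 fold, taken as immunoprecipitation over input, and a −log10 p. Both are the authors' own values. PABPC1 had 1 list, and the 2 CCT3 lists are not shown to be independent of each other, so no comparison below has a replicate check and no p-value was computed. The lists hold no read counts, so sequencing depth at a peak is unknown. Intervals are Wilson 95% intervals of shares. They cover counting error only, and neighbouring peaks are not independent.

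The CCT3 peaks in 3′ UTRs were narrow and of moderate fold. Their widths ran from 5 to 406 bases with a median of 57, and together they covered 130808 bases. The log2 fold had a median of 3.85 (quartiles 3.40 and 4.46) and reached 7.25, against a median of 4.05 over all CCT3 peaks. A log2 fold of at least 5 was reached by 219 of the 1969 peaks (11.1%, 9.81 to 12.6%), beside 14.8% of all peaks of the list. In CCT3-2 the same fold was reached by 8.08% of 3′ UTR peaks and 10.8% of all peaks. Across the peaks with a measured position, fold and distance to the 3′ end had a Spearman correlation of 0.02 (n = 1877, many peaks sharing a gene), a description only.

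Peaks were given to the RefSeq gene whose span holds them, since the listed gene is that of the nearest transcription start. This placed 1926 of the 1969 peaks (97.8%) in 666 genes, of which 662 were protein-coding. A further 30 peaks had no holding gene and 13 could not be settled between genes. The listed gene was the holding gene for 72.2% of the peaks. Of the 666 genes, 330 (49.5%) had a single CCT3 3′ UTR peak, 122 had 5 or more and 34 had 10 or more. Those 34 genes held 445 peaks, or 23.1% of the assigned ones. The corresponding share for genes with 10 or more PABPC1 3′ UTR peaks was 7.31%.

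Where a gene had several CCT3 3′ UTR peaks, they followed each other at short intervals. Neighbouring peak midpoints of a gene were a median of 181 bases apart (quartiles 109 and 336). The median was 123.5 bases for CCT3-2 and 100.5 for PABPC1 3′ UTR peaks, so close spacing was not particular to CCT3. In the genes with 5 or more peaks and a known strand, 120 in all, the first and last midpoints were a median of 1544 bases apart (quartiles 1157 and 2413). The 3′ UTR was often not the only bound part: 320 of the 666 genes (48.0%) also held 1642 CCT3 peaks in other exons and 88 (13.2%) held intronic peaks. In 292 genes (43.8%, 40.1 to 47.6%) all CCT3 peaks were in the 3′ UTR class.

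Zkscan1, a zinc finger transcription factor gene, had the most CCT3 3′ UTR peaks. Its 20 peaks had log2 folds of 3.40 to 5.92 and lay 2192 to 6203 bases from the end of the gene, and CCT3-2 had 25 there. Zfp101, another zinc finger gene, had 16 peaks with log2 folds of 4.01 to 7.25 and the highest fold of all members, on chromosome 17 at 33381191 to 33381277 in mm10. All 16 peaks of Zfp101 passed a log2 fold of 4, and CCT3-2 had 27 peaks there of up to 7.37. The uncharacterised gene 2610008E11Rik had 18 peaks with log2 folds of 3.91 to 7.21, at 89 to 1993 bases from the end. Its highest peak had a −log10 p of 400, taken as the cap of these values. That value was shared by 2 CCT3 3′ UTR peaks and 515 PABPC1 3′ UTR peaks, so it does not rank them.

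Of the other genes with most peaks, Amer1, a regulator of Wnt signalling, had 18 peaks with log2 folds of up to 5.75, and Fem1a, a substrate receptor of a cullin ubiquitin ligase, had 16 of up to 5.89. Zfp655 had 18 peaks of up to 4.96 and Fam210a 15 of up to 5.39. No PABPC1 3′ UTR peak lay in Zfp101, 2610008E11Rik, Amer1, Zfp655, Fem1a or Fam210a, and Zkscan1 had 1 at a log2 fold of 4.56. Over all 666 genes, 27.0% had a PABPC1 3′ UTR peak.

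High folds were also found in genes of other kinds. Ythdc1, the nuclear reader of the m6A mark on RNA, had 15 peaks with log2 folds of 3.50 to 7.17, the highest on chromosome 5 at 86828186 to 86828240. Pan3, a subunit of a poly(A) deadenylase, had 6 peaks with log2 folds of 4.48, 7.15, 4.16, 3.68, 4.24 and 3.51, in order towards the 3′ end. Only the second of these stands high, and it lies on chromosome 5 at 147546699 to 147546759. Flrt1, a transmembrane adhesion protein gene, had 14 peaks of up to 7.06, in a region where gene spans overlap. Csnk1g1, a casein kinase gene, had 8 peaks of up to 6.93, the highest on chromosome 9 at 66040302 to 66040332. Its 1 PABPC1 peak was 66 bases from the end, and its CCT3 peaks 4020 to 5259 bases. Epm2aip1 had 10 peaks of up to 6.55 at 3758 to 5310 bases and 1 PABPC1 peak at 82 bases. Pde7a, a cyclic nucleotide phosphodiesterase gene, had 3 peaks with log2 folds of 3.46, 3.26 and 6.67.

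**Figure D1:**
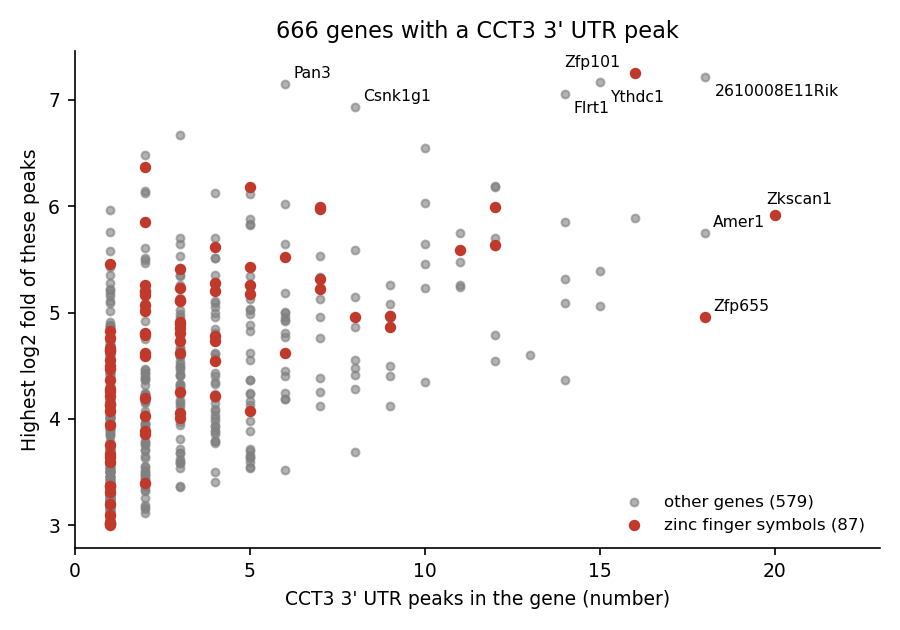
Each point is a gene with a CCT3 3′ UTR peak (666 genes), by its number of such peaks on the x axis and their highest deposited log2 fold on the y axis; red points have a Zfp, Zkscan or Zscan symbol. Pan3 reaches a high fold with 6 peaks, whereas Zkscan1 has the most peaks (20) with a highest fold of 5.92.

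Zinc finger genes made up a larger share of these genes than of the PABPC1 ones. Genes with a Zfp, Zkscan or Zscan symbol mostly encode zinc finger proteins, many of them DNA-binding repressors of repeat elements. The symbols were counted after the values were seen. They numbered 87 of the 666 CCT3 3′ UTR genes (13.1%, 10.7 to 15.8%) and 63 of 4533 PABPC1 3′ UTR genes (1.39%, 1.09 to 1.77%), beside 427 of 21900 protein-coding genes (1.95%). Among genes whose CCT3 peaks were all of other classes the share was 6.55% (5.38 to 7.96%, 93 of 1419). In CCT3-2 it was 13.3% (115 of 864). The intervals of the first share do not meet those of the PABPC1 genes or of the genes with other classes only, but no test across samples was possible.

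The 87 genes held 311 CCT3 3′ UTR peaks, with a median log2 fold of 4.19 against 3.76 for the 1615 peaks of other genes. A log2 fold of at least 5 was reached by 20.3% of them (16.2 to 25.1%). In other genes 9.29% did (7.97 to 10.8%). Outside 3′ UTRs the median log2 fold was 4.09 for the 794 CCT3 peaks of zinc finger genes and 4.09 for the 7972 of other genes. Their 3′ UTR peaks lay a median of 2806 bases from the end of the gene, beside 3066 bases in other genes. A PABPC1 3′ UTR peak was present in 13 of the 87 genes (14.9%), beside 27.0% of all 666 CCT3 3′ UTR genes and 20.6% of protein-coding genes. These genes form families of related sequence, and how reads matching several copies were counted was not stated, so the split of peaks between near-identical genes is uncertain.

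**Figure D2:**
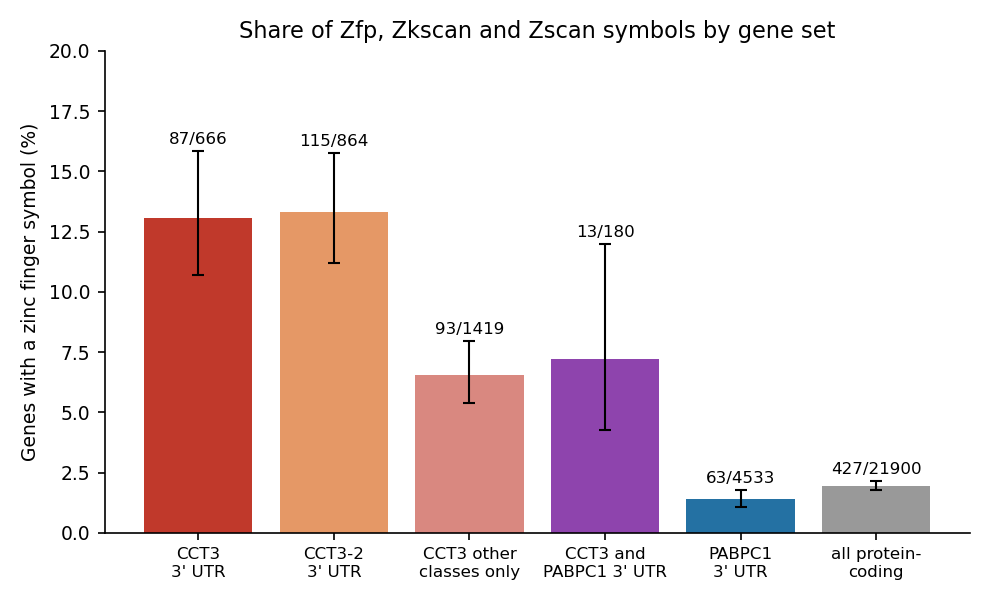
Bars give the share of genes with a Zfp, Zkscan or Zscan symbol (y axis, percent) in 6 gene sets, with Wilson 95% intervals and the counts above. The share is 13.1% for CCT3 3′ UTR genes, 13.3% for CCT3-2 and 1.39% for PABPC1.

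CCT3 3′ UTR peaks lay far from the 3′ ends of their genes, and PABPC1 3′ UTR peaks close to them. Distances were counted along the genome, introns included, from the midpoint of a peak to where its RefSeq gene ends, and could be measured for 1877 CCT3 peaks. Another 49 peaks were in genes of unknown strand. The median distance was 3030 bases for CCT3 (quartiles 1624 and 6197) and 459 bases for the 10714 PABPC1 peaks (quartiles 148 and 1324). Only 5 CCT3 peaks (0.266%, 0.114 to 0.622%) were within 100 bases of the end, against 17.7% of PABPC1 peaks (17.0 to 18.5%). Within 500 bases the shares were 6.07% (5.08 to 7.25%) and 52.1% (51.2 to 53.1%). Within 1000 bases they were 14.8% (13.2 to 16.4%) and 68.8% (67.9 to 69.7%).

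The listed transcript, whose coordinates the tables give, held the whole peak for 37.5% of CCT3 and 23.8% of PABPC1 3′ UTR peaks. Measured to the end of that transcript, the median distance was 1967 bases for 739 CCT3 peaks and 299 bases for 2682 PABPC1 peaks. The share within 500 bases was then 18.1% (15.5 to 21.1%) and 61.2% (59.3 to 63.0%). The poly(A) site used in these cells was not measured, and its part in these distances was not tested.

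**Figure D3:**
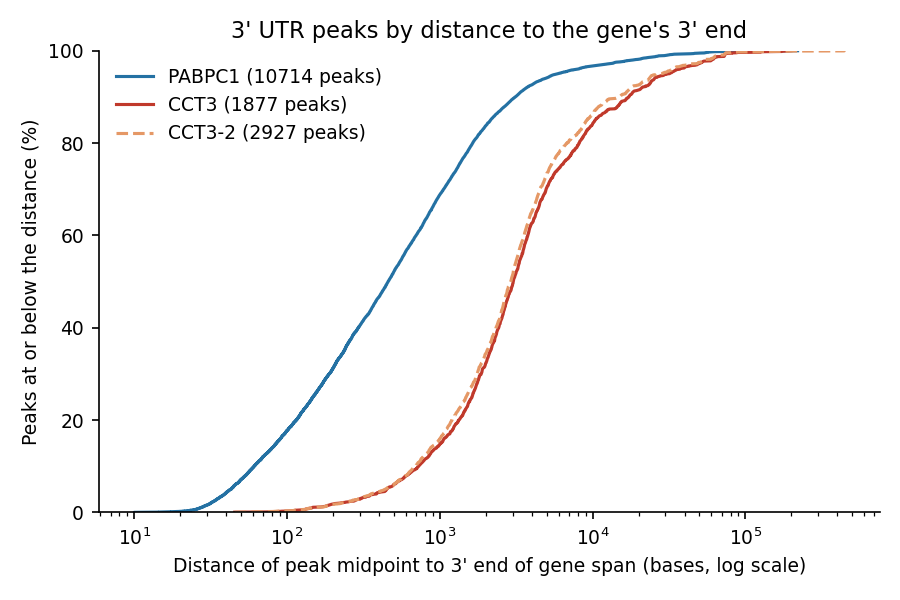
Lines give the cumulative share of 3′ UTR peaks (y axis, percent) by distance of the peak midpoint to the 3′ end of the gene span (x axis, bases, log scale) for PABPC1, CCT3 and CCT3-2. The CCT3 and CCT3-2 lines run together with medians of 3030 and 2914 bases, to the right of PABPC1 with 459.

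Some CCT3 peaks of this class lay far inside their genes. There were 559 peaks (29.8%, 27.8 to 31.9%) beyond 5000 bases of the gene's end and 160 (8.52%) beyond 20000 bases, against 5.91% and 1.85% of PABPC1 3′ UTR peaks. For CCT3-2 the shares were 26.8% and 7.41%. The classes are not alike: only the CCT3 list kept peaks within 1000 bases of the listed transcription start as 3′ UTR. Tnrc6a, which encodes an Argonaute partner in microRNA silencing, had 14 CCT3 3′ UTR peaks, all 23271 to 25636 bases from the end. In Ythdc1 all 15 were 7203 to 8446 bases away, and in Fam135a all 4 were 18031 to 18557 bases away. The deposited class does not name the transcript whose 3′ UTR it used. The CCT3-2 list had a peak over each of these CCT3 peaks, nearly always in the promoter class: it had 1 3′ UTR peak in Ythdc1 and 0 in Tnrc6a and Fam135a.

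The difference of class between the CCT3 lists followed the distance to a transcription start. Of the CCT3 3′ UTR peaks 167 (8.48%) were within 1000 bases of the listed start, and 0 of the 3081 CCT3-2 and 0 of the 11263 PABPC1 3′ UTR peaks were. For 148 CCT3 peaks in 61 genes the overlapping CCT3-2 peak was in the promoter class. Overlap by at least 1 base with a CCT3-2 3′ UTR peak was found for 1631 of the 1969 peaks (82.8%), and with a CCT3-2 peak of any class for 1781 (90.5%). These samples share a library name and the series lists 1 CCT3 input, so this is a check of the lists and not of replicates. The 188 peaks without a counterpart had a median log2 fold of 3.39 and −log10 p of 5.20, against 3.90 and 8.12 for the others. At gene level 588 of the 666 genes (88.3%) had a 3′ UTR peak in CCT3-2, which were 68.1% of its 864 genes.

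The CCT3 table gives no strand, but CCT3-2 does. For 1690 peaks with an overlapping CCT3-2 peak on 1 strand and a known gene strand, 1611 (95.3%, 94.2 to 96.2%) matched the strand of the gene. The other 79 lay in 30 genes, led by Tigit with 13, Plcg1 with 10, Lrrc14b with 6 and Paqr3 and Cmtr1 with 5 each. For these genes the name given here is that of the span and not shown to be that of the bound RNA.

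Both proteins had 3′ UTR peaks in 180 genes, which were 27.0% of the CCT3 and 3.97% of the PABPC1 3′ UTR genes. The share of genes with a PABPC1 3′ UTR peak was 27.0% (23.8 to 30.5%) for genes with CCT3 3′ UTR peaks. For genes with other CCT3 classes only it was 31.6% (29.2 to 34.0%). These intervals overlap, which does not show the shares to be equal, and their difference was not tested. Genes with a PABPC1 3′ UTR peak numbered 34 of 122 among those with 5 or more CCT3 3′ UTR peaks and 88 of 330 among those with 1. In the shared genes the median distance to the 3′ end was 3804 bases for 520 CCT3 peaks and 813 bases for 370 PABPC1 peaks. Within 500 bases lay 6.35% (4.55 to 8.78%) of these CCT3 peaks and 41.6% (36.7 to 46.7%) of these PABPC1 peaks.

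Gene by gene, CCT3 3′ UTR peaks lay farther from the end of the gene span than PABPC1 ones in most of the shared genes, whether or not both lay in the 3′ UTR of 1 transcript. In 154 of 175 genes with a known strand (88.0%, 82.4 to 92.0%) the median CCT3 distance was larger than the PABPC1 one. Over all genes with a peak of both proteins in any class the share was 91%. All CCT3 peaks were farther from the end than all PABPC1 peaks in 137 genes (78.3%, 71.6 to 83.8%), beside 81.6% over any class, and nearer in 12 (6.86%), beside 4.56%. These shares are near the background of any class, so they do not set 3′ UTR peaks apart. The per-gene difference of medians was 1381 bases at its median (quartiles 303 and 3939). With peaks more than 5000 bases from the end left out, chosen after seeing the data, CCT3 was farther in 118 of 132 genes (89.4%) with a median difference of 898 bases.

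**Figure D4:**
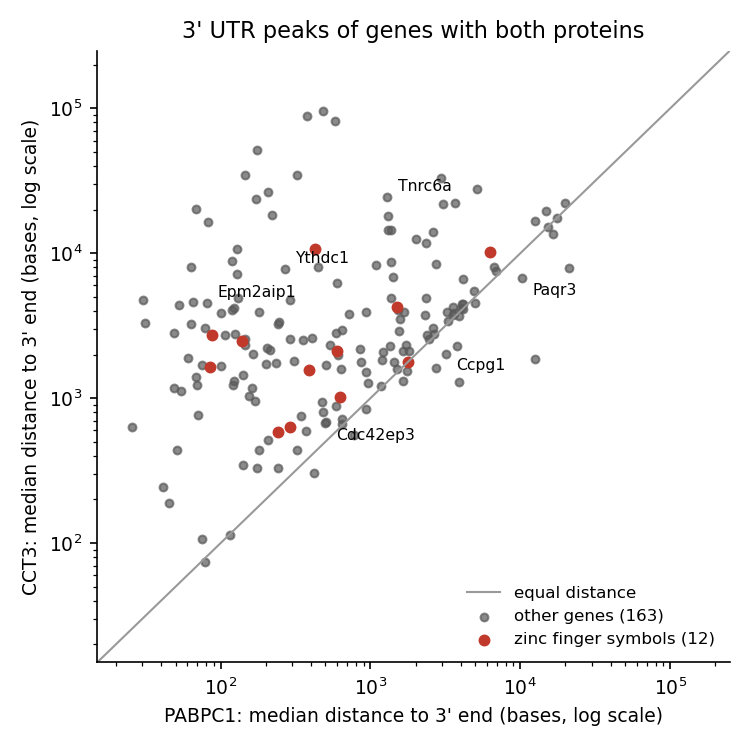
Each of the 175 points is a gene, placed by the median distance to the 3′ end of its PABPC1 3′ UTR peaks (x axis) and of its CCT3 3′ UTR peaks (y axis), both in bases on a log scale; the line marks equal distance and the 12 red points have a zinc finger symbol. Above the line lie 154 genes, and Paqr3 and Ccpg1 are among the 21 below it.

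Some of the genes with most peaks of both proteins show the arrangement. In Ythdc1 the 4 PABPC1 peaks, at log2 folds of 3.35 to 4.06, lay 90 to 442 bases from the end, and the 15 CCT3 peaks lay at 7203 to 8446 bases. The CCT3-2 list had 1 3′ UTR peak in Ythdc1, so the class of these CCT3 peaks differs between the lists. In Msl2, a ubiquitin ligase gene of a histone acetyltransferase complex, 6 CCT3 peaks lay 2969 to 4110 bases and 4 PABPC1 peaks 1027 to 2287 bases from the end. In Atxn7l3b 5 CCT3 peaks with log2 folds of up to 3.70 lay at 1635 to 2304 bases, directly upstream of 15 PABPC1 peaks at 62 to 1382 bases that reached 7.05. Nufip2, which encodes a partner of the fragile X protein, had 4 CCT3 peaks at 7703 to 8250 bases and 6 PABPC1 peaks at 5295 to 7604 bases. In each of these 4 genes the ranges did not overlap.

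In other genes they interleaved. Ssh2, a cofilin phosphatase gene, had 4 CCT3 peaks at 1046 to 4370 bases, with log2 folds of 3.79, 5.06, 6.13 and 4.39 towards the end, and 9 PABPC1 peaks at 31 to 3646 bases. Arrdc3, an arrestin-related gene, had 6 CCT3 peaks with log2 folds of 3.83, 6.02, 5.76, 4.71, 5.01 and 3.97 at 1814 to 2518 bases, and 3 PABPC1 peaks of 5.60, 5.82 and 3.98 at 596 to 2067 bases. Cdc42ep3, a gene for an effector of the Cdc42 GTPase, had 4 CCT3 peaks with midpoints at 497 to 828 bases and 9 PABPC1 peaks with midpoints at 349 to 826 bases. The CCT3 folds there were even, at 3.73, 3.93, 3.78 and 3.72.

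CCT3 3′ UTR peaks downstream of all PABPC1 peaks were in genes such as Paqr3, where 5 CCT3 peaks lay 5738 to 7109 bases and 3 PABPC1 peaks 10166 to 10415 bases from the end. The CCT3-2 counterparts of all 5, and the PABPC1 peaks, are on the strand opposite to Paqr3. In Tigit, too, the single PABPC1 3′ UTR peak is on the opposite strand. With only CCT3 peaks whose CCT3-2 counterpart matched the gene's strand, and PABPC1 peaks on that strand, chosen after seeing the data, CCT3 was farther in 137 of 152 genes (90.1%).

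**Figure D5:**
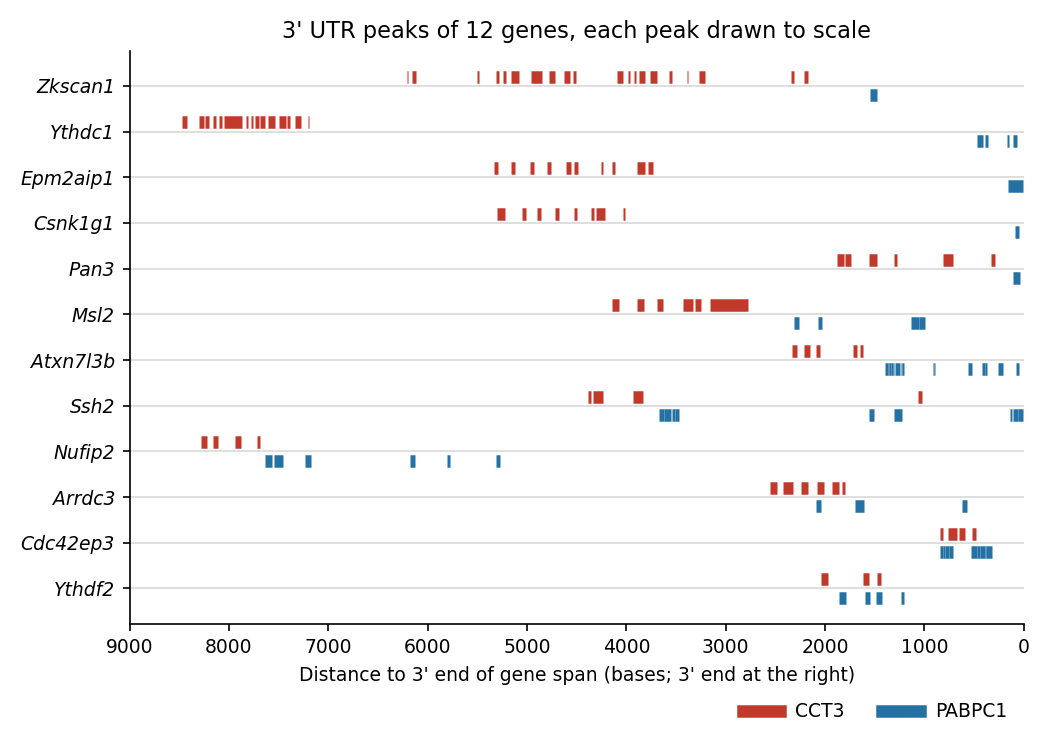
CCT3 (red, above each line) and PABPC1 (blue, below) 3′ UTR peaks of 12 genes, drawn to scale by distance to the 3′ end of the gene span (x axis, bases, with the 3′ end at the right). In Zkscan1, Ythdc1, Epm2aip1 and Csnk1g1 the CCT3 peaks form a row more than 2000 bases from the end, whereas in Cdc42ep3 and Ythdf2 the peaks of both proteins share a stretch. In Ythdc1 the CCT3-2 list had 1 peak of the 3′ UTR class, beside 15 in CCT3.

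Few peaks of the proteins touched. Of the 1969 CCT3 3′ UTR peaks, 30 (1.52%, 1.07 to 2.17%) overlapped a PABPC1 3′ UTR peak. Of these, 28 lay in 23 genes and the rest had no assigned gene. Among the 530 CCT3 peaks of the shared genes the share was 5.28% (3.68 to 7.53%), and 26.0% (22.5 to 29.9%) were within 500 bases of a PABPC1 3′ UTR peak of the gene. The median gap was 1850 bases. With PABPC1 peaks of any class counted, 33 of the 1969 CCT3 3′ UTR peaks (1.68%, 1.20 to 2.34%) overlapped one. Of all CCT3 peaks 0.669% (0.532 to 0.840%) did. Strand could be read from CCT3-2 for 28 of the 30 peaks, and 26 of these lay on the strand of the PABPC1 peak. The other 2 were in Cmtr1 and Carm1.

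Ythdf2, the cytoplasmic m6A reader that directs mRNAs to decay, had 3 CCT3 peaks at log2 folds of 3.02, 3.18 and 4.40, and the last 2 overlapped PABPC1 peaks of 3.32 and 4.83. Zfp36l2, which encodes a protein that binds AU-rich elements in 3′ UTRs, had 1 peak of each protein, at 3.31 and 3.27, overlapping by 31 bases. Junb, an immediate early transcription factor gene, had 4 CCT3 peaks at 140 to 440 bases from the end, 2 of them over its 1 PABPC1 peak of 5.06. Tuba4a, an α-tubulin gene and so a gene for a class of TRiC clients, had 1 CCT3 peak at 3.96 that overlapped its 1 PABPC1 peak of 3.10, and 1 CCT3-2 peak at 3.65. The overlapping CCT3 peak with the highest log2 fold, 6.21, lay on chromosome 17 at 26976168 to 26976271 and had no assigned gene. Cmtr1 had an overlapping CCT3 peak at 4.82. Further overlaps were in 4930453N24Rik, Ccpg1, Arrdc3, Rbbp6, Gtf3a and Gnl2, with CCT3 log2 folds of 6.15, 5.02, 4.71, 4.61, 4.05 and 4.02. The overlap in 4930453N24Rik was of 2 bases only. Both overlapping Gtf3a peaks lay opposite to the strand of Gtf3a.

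Among the CCT3 peaks nearest to a 3′ end were those in Gtf3a at 46 bases, Aunip at 74 and 2610008E11Rik at 89. The CCT3-2 counterpart of the Gtf3a peak lies on the opposite strand. Aunip, which encodes a partner of the kinase Aurora A, had a PABPC1 peak at a log2 fold of 4.92 over its CCT3 peak of 3.15.

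By gene group, CCT3 3′ UTR peaks were found in 23 of 291 genes of the lists examined (7.90%), beside 662 of 21900 protein-coding genes (3.02%). PABPC1 3′ UTR peaks were found in 162 (55.7%), beside 20.6%. Chromatin regulators had CCT3 3′ UTR peaks in 8 of 34 genes (23.5%), namely Arid1b, Arid5b, Chd1, Chd2, Kmt2e, Setd2, Tet2 and Tet3. PABPC1 3′ UTR peaks were in 19 of the 34 (55.9%), also above the 20.6% of protein-coding genes. CCT3 peaks of any class were in 19 of the 34, beside 2017 of 21900 protein-coding genes. A raised share was thus not particular to the 3′ UTR class. Arid5b, a DNA-binding partner of a histone demethylase, had 12 peaks of up to 4.54 (22 in CCT3-2) and no PABPC1 3′ UTR peak. Tet3, a methylcytosine dioxygenase gene, had 4 peaks of up to 4.40, and Arid1b, a subunit of a chromatin remodeller, had 1 at 4.55 beside 1 PABPC1 peak at 4.86. The microRNA pathway list had 3 of 14 genes (2 in CCT3-2), all GW182 family members: Tnrc6a with 14 peaks, Tnrc6b with 1 at 3.18 and Tnrc6c with 1 at 4.86. The Tnrc6a peaks lay 23271 to 25636 bases from the end of the gene, and CCT3-2 had 0 3′ UTR peaks there. For Tnrc6b the distance was 11492 bases. Whether the Tnrc6a and Tnrc6b peaks lie in the 3′ UTR of the bound transcript was not tested. The Tnrc6c peak lay 1318 bases from the end, between PABPC1 peaks at 1169 and 1637 bases with log2 folds of 6.88 and 5.46.

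Of 26 poly(A) factor genes 3 (11.5%) had a CCT3 3′ UTR peak and 16 (61.5%) a PABPC1 one. Over all lists examined these shares were 7.90% and 55.7%, and over protein-coding genes 3.02% and 20.6%. How the lists in this paragraph differ from those shares was not tested. The 3 genes were Pan3, Btg1, an antiproliferative gene whose protein binds deadenylases, at 4.16, and Cnot4, a ligase of the deadenylase complex, at 3.27. The Btg1 peak lay 2911 bases from the end of the gene and the Cnot4 peak 24199 bases. Whether the Cnot4 peak lies in the 3′ UTR of the bound transcript was not tested. Of 35 genes for 3′ UTR binding proteins, Ythdf2 and Zfp36l2 had a CCT3 3′ UTR peak (5.71%) and 25 a PABPC1 one (71.4%). Of 26 ubiquitin ligase genes 3 (11.5%) had a CCT3 one, Fbxw7 at 4.78, Siah1a at 4.47 and Mdm2 at 3.36, against 17 (65.4%) in PABPC1. The single CCT3 peak of Mdm2, the ligase of p53, lay 1690 bases from the end, upstream of 7 PABPC1 peaks at 66 to 1115 bases, and CCT3-2 had none there. The cell cycle and p53 list had 2 of 30 (6.67%), against 13 (43.3%) in PABPC1. The 2 were E2f3 with 1 peak at 5.97 and Bcl2, which encodes an inhibitor of apoptosis, with 9 of up to 4.50 and no PABPC1 3′ UTR peak.

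Of 27 genes for TRiC subunits, prefoldins, actins and tubulins, Tuba4a was the one with a CCT3 3′ UTR peak (3.70%, near the 3.02% of protein-coding genes), and 14 had a PABPC1 one. Of 22 growth signal receptor and transporter genes 0 had a CCT3 3′ UTR peak and 11 a PABPC1 one, a list too short to set 0 apart from that share. Tug1, Pabpc1 and Cct3 had 0 CCT3 3′ UTR peaks, while Pabpc1 had 4 PABPC1 ones of up to 6.62. Tug1 had 0 peaks of this class in the other lists too. These counts cover the 3′ UTR class only and say nothing of peaks of other classes.

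Marker genes of testicular and other cell types were counted in the same way, beside the 3.02% of protein-coding genes with a CCT3 3′ UTR peak. CCT3 3′ UTR peaks lay in 0 of 21 meiotic spermatocyte, 0 of 14 spermatid, 0 of 7 Leydig cell, 0 of 16 fibroblast and 0 of 8 immune cell markers. Of 11 Sertoli cell markers 1 had such a peak, Sox9 at 4.05. At that background share, counts of 0 or 1 in lists of this length are no result about the markers. The PABPC1 counts in the same order were 12, 7, 5, 10 and 1, and 7 for Sertoli cells. They stand beside PABPC1 3′ UTR peaks in 55.7% of all genes of the lists examined and 20.6% of protein-coding genes. Expression was not measured, so whether the RNA available to each protein differed was not tested.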

How the data were processed

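The analysis used 3 peak lists of 5 samples, 1 list each for PABPC1, CCT3 and CCT3-2. Per the submitters' processing notes, bcl2fastq 2.20 and the build mm10 were used. No source used here names the aligner, peak caller or annotation tool. The authors' deposited log2 folds and −log10 p values were used as given. The CCT3 file header names both columns, and those of the other tables were read as the same from their ranges. The deposited strand column, which CCT3 lacks, was used for strand checks and 1 alternative.

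The members, gene lists and comparisons were chosen with earlier results of these data known. Positions were to be measured on listed transcripts, but these held few peaks, so RefSeq gene spans (GRCm38.p6, the same build) were used, with the listed transcripts beside them. Where several spans held a peak, the single protein-coding gene was taken, then the listed gene. Gene strand came from RefSeq promoters and then the tables. Named genes were those with the 8 highest folds, the 8 with most peaks, the 8 with most peaks of both proteins, 10 with overlapping peaks, 4 nearest to the end, up to 3 per list, and Tug1, Pabpc1 and Cct3. One gene that the rule names is not reported here. Genes outside this rule, such as Chd1, Chd2, Kmt2e, Setd2, Tet2, Plcg1, Lrrc14b, Paqr3, Tigit and Carm1, were named after their values were seen. Overlaps used bedtools 2.31.1 (at least 1 base), and intervals Python 3.11.15 with scipy 1.17.1 and pandas 2.3.3. The position and overlap code was tested on simulated data. No sequence is shown, as the peaks' sequence was not used here.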

Additional observations from a re-analysis of the deposited data

Results flagged for a closer look

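The strand column of the CCT3-2 and PABPC1 tables entered no main comparison, and by it some 3′ UTR peaks ran antisense to the gene that holds them. This held for 130 of 2927 CCT3-2 peaks (4.44%, 3.75 to 5.25%), led by Plcg1 with 15, Tigit with 12 and Paqr3 with 11. Among PABPC1 3′ UTR peaks it held for 211 of 10714 (1.97%, 1.72 to 2.25%).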

How the results depend on the processing

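Of 43 alternative values for the 7 main results, 23 fell inside the 95% interval of the share reported above; 1 of these, the order of the proteins within a gene as a share of its span, cannot change by construction. No paired analysis was possible because PABPC1 has a single list, the CCT3 lists share a library name and nothing was tested between samples. At a log2 fold of at least 4 and a −log10 p of at least 5, 15.6% of CCT3 peaks were in 3′ UTRs and 30.6% of these reached a log2 fold of 5, since lower folds were removed. There, within 1000 bases of the end lay 12.6% of all CCT3 3′ UTR peaks and 44.2% of shared-gene PABPC1 ones (14.8% and 54.1% before). At these limits 0.419% of CCT3 3′ UTR peaks overlapped PABPC1 and 75.0% overlapped CCT3-2. Pairs of such shares below also set all CCT3 3′ UTR peaks beside PABPC1 ones of shared genes only, which are unlike sets. With the CCT3-2 list in place of CCT3, the 3′ UTR share was 16.5% and the share past a log2 fold of 5 was 8.08%. Of all CCT3-2 3′ UTR peaks 15.9%, and of PABPC1 ones in shared genes 57.9%, were within 1000 bases. With that list CCT3 was farther in 88.0% of shared genes and 1.88% of peaks overlapped PABPC1. To the end of the listed transcript, 32.6% of all CCT3 and 63.2% of shared-gene PABPC1 3′ UTR peaks were within 1000 bases. CCT3 was farther in 79.5% of 44 genes. The last 10% of the gene span held 47.3% of all CCT3 and 78.6% of shared-gene PABPC1 3′ UTR peaks. With at least 2 peaks per protein, CCT3 was farther in 92.3% of 39 genes. With 50% reciprocal overlap, 1.02% overlapped PABPC1 and 70.9% CCT3-2. Overlap with CCT3-2 peaks of any class was 90.5%, and 78.2% with those whose values were both at least 3. Beyond 1000 bases of the listed start, chosen after seeing the data, the 3′ UTR share was 19.6% and the overlap with CCT3-2 90.3%. Apart from the removal of peaks by a threshold, the cause of these differences was not tested. Peaks per gene were within 1.5 times the main count in 44 of 98 alternative values for 49 named genes. With no read counts in the lists, the absence of a peak cannot be read as absence of binding.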
